A study of Mus musculus with 4 samples.

Results

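The cell cycle genes described here are 36 genes whose products copy DNA or carry cells through mitosis, followed in mouse bone marrow-derived macrophages with and without a floxed Mettl3 gene exposed to Cre. They were taken by name from the 55401 genes of the deposited table: 14 act around S phase, when DNA is replicated, and 22 act in G2 and mitosis. The macrophages came from 8-week C57BL/6 mice, were grown with M-CSF, the growth factor that drives macrophage formation from marrow, and were cultured for 24 h together with MC38, a mouse colon carcinoma line. The 2 control libraries were Mettl3fl/fl, and the 2 knockout libraries carried LysM-cre as well as Mettl3fl/fl. Each group held a library numbered 1 and a library numbered 3, called biological replicates in the series' design text. Poly(A) RNA was sequenced. Both groups carry the floxed alleles and both were exposed to MC38, so neither an unfloxed nor an unexposed culture was compared. The LysM promoter is active in macrophages and other myeloid cells, and the sources used here do not say how many animals gave each culture. The Mettl3 protein is the enzyme that methylates adenosines in mRNA (m6A).

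Cells prepare for division in order. Cyclin E with its kinase starts S phase and E2F factors raise the genes for DNA synthesis. The MCM helicase opens the DNA, PCNA clamps the polymerase to it, and ribonucleotide reductase and thymidylate enzymes supply its building blocks. Cyclin A, cyclin B and CDK1 then drive entry into mitosis, where Aurora and Polo-like kinases, kinesin motors and kinetochore proteins build the spindle, and Cdc20 with the anaphase-promoting complex ends it. Macrophages grown from marrow divide in response to M-CSF, and the RNA of these genes is low in cells that have left the cycle. In bulk RNA, fewer cycling cells and less of each RNA per cycling cell cannot be told apart.

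Many promoters of these genes, but not all, carry the letters by which cell cycle genes are commonly grouped. To make that grouping visible, 7 promoters that hold an E2F motif or a CHR, both defined below, are shown. Each line gives the 120 bases just before the RefSeq start of the gene, 5′ to 3′ on the gene's strand, from RefSeq on GRCm38.p6. Capitals mark the motifs searched on both strands. The E2F motif had any of 4 forms: TTGGCGC as its first form, also TTCCCGC as another form, then TTCGCGC as a further form, and TTGCCGC as the last form. The CHR, or cell cycle genes homology region, was TTTGAA in its usual form and TTCGAA in a variant form. The remaining motif was the CCAAT box. E2F matches can overlap each other, as in Mcm6, where the matches on opposite strands run together, and an E2F match can share bases with a CCAAT box. Mcm6 and Rrm1 act in S phase, and the other 5 in G2 and mitosis.
Mcm6 (chr1:128359706-128359825, minus strand): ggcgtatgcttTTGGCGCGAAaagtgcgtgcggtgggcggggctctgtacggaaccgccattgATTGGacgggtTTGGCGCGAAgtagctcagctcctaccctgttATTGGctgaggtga
Rrm1 (chr7:102441575-102441694, plus strand): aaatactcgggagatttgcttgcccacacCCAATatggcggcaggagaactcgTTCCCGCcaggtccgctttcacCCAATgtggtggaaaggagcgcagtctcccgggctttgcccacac
Cdk1 (chr10:69352913-69353032, minus strand): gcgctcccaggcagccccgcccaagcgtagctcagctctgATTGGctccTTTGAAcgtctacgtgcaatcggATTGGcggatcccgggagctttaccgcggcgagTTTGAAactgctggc
Top2a (chr11:99024190-99024309, minus strand): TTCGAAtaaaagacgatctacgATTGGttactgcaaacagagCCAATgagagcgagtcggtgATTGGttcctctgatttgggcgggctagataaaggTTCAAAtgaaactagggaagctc
Kif11 (chr19:37376262-37376381, plus strand): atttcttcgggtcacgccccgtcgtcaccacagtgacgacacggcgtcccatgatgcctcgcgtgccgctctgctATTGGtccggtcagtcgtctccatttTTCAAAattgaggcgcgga
Cdc20 (chr4:118437344-118437463, minus strand): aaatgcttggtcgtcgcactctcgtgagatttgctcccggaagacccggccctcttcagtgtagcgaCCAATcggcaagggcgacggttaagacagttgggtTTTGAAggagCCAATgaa
Mki67 (chr7:135716380-135716499, minus strand): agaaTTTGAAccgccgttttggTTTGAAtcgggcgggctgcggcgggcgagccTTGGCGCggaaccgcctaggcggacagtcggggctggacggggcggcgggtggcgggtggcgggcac

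Promoters were found in the RefSeq table for 30 of the 36 genes, as 31 windows running from 250 bases before to 50 bases after the start. Among the 13 S phase windows, 7 (53.8%) held the E2F motif, against 3 of 18 (16.7%) in G2 and mitosis and 9.57% of all 32851 promoters. The CHR was in 14 of 18 G2 and mitosis windows (77.8%), in 2 of 13 S phase windows (15.4%), and in 19.2% of all promoters. Both groups often held a CCAAT box, which was in 69.2% of S phase windows and 88.9% of G2 and mitosis windows, beside 37.4% of all promoters. All 14 G2 and mitosis windows with a CHR also held a CCAAT box, a combination found in 7.52% of all promoters. Such matches describe letters in a window and are not binding sites.

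**Figure D1:**
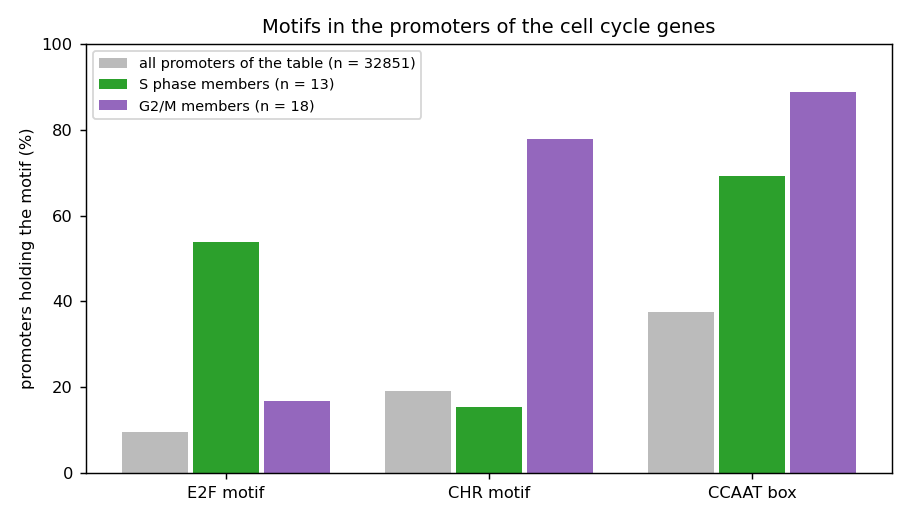
The bars give the percent of promoter windows that hold the E2F motif, the CHR or the CCAAT box, for the S phase genes (13 windows), the G2 and mitosis genes (18 windows) and all 32851 promoters. The E2F bar is highest for the S phase genes (53.8%) and the CHR bar for the G2 and mitosis genes (77.8%).

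Total counts were 55100415 to 79209870 per library, with a count in 20650 to 20986 genes. Levels below are CPM (estimated counts scaled to library size, after TMM adjustment), always in the order control 1, control 3, knockout 1, knockout 3 unless said otherwise. Mettl3 itself stood at 18.3, 23.2, 13.9 and 19.6 CPM. Each knockout was below the control of its own number, but knockout 3 was above control 1, so the groups overlapped. The sources used here do not give the exons that the floxed allele removes, so a whole-gene count need not show the deletion. Ddx3y, on the Y chromosome, had levels of 72.1, 0.307, 89.1 and 0.139 CPM, and Xist, the X-inactivation transcript, at 0.589, 1351, 0.624 and 1161 CPM. The libraries numbered 1 thus had RNA of a male pattern and those numbered 3 of a female pattern, so library number and sex cannot be told apart. Every p-value rests on 2 libraries a side. In the genotype test the 2 of a side differ in number, and in the number test they differ in genotype. Each pair of genotype and number is a single library.

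All 36 genes passed the filter on low counts. The lowest deposited count was 130, for Ube2c in knockout 3. Per length, mean FPKM (counts scaled for transcript length and library size) ran from 0.473 for Cenpf to 35.8 for Pcna. The summed level of the 36 genes was 946 CPM in control 1, 554 CPM in control 3, 1297 CPM in knockout 1 and 516 CPM in knockout 3. The highest library was thus knockout 1 and the lowest was knockout 3, with both controls between them. For 27 of the 36 genes (10 in S phase, 17 in G2 and mitosis) the order from high to low was the same: knockout 1, control 1, control 3, knockout 3. That order held in 6.82% of the 17260 genes tested.

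**Figure D2:**
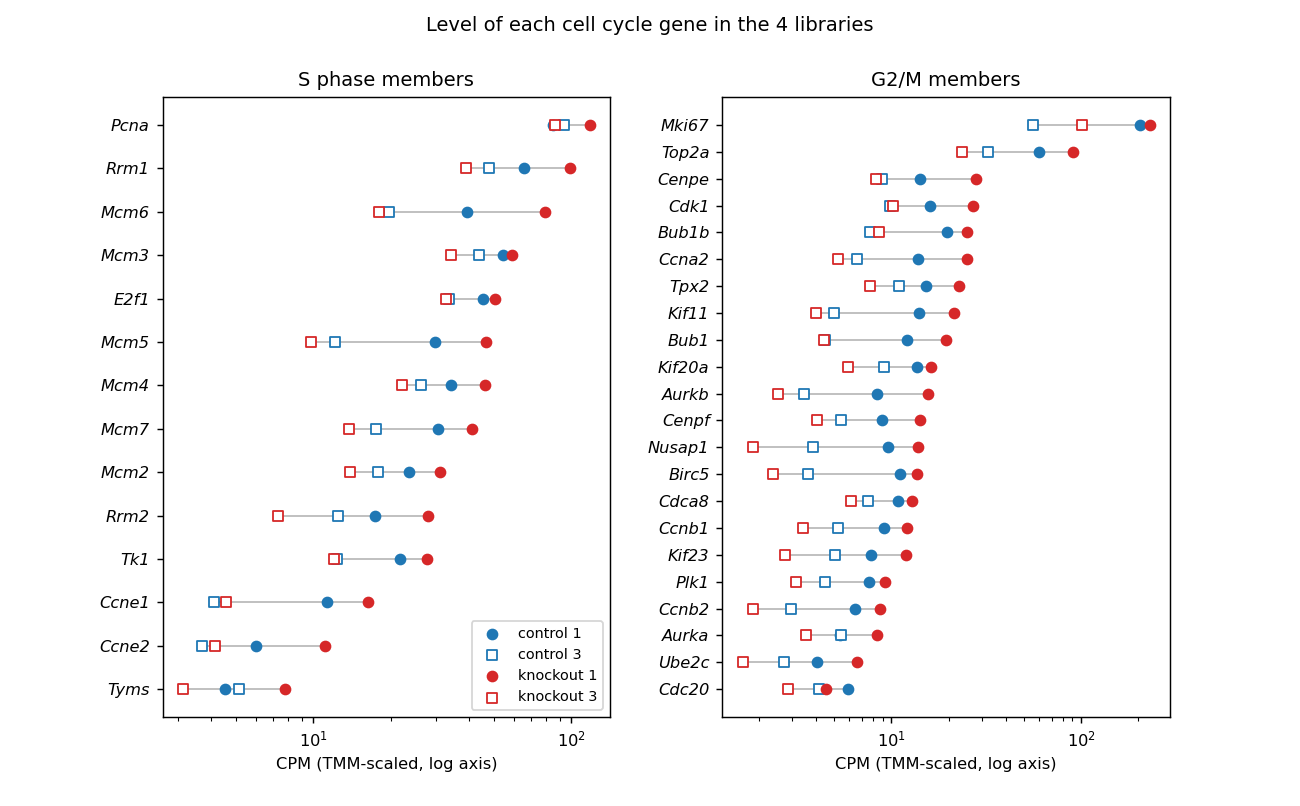
Each row is a cell cycle gene and each point its level in 1 library, on a log CPM axis, with S phase genes on one side and G2 and mitosis genes on the other. Knockout 1 is the rightmost point for 35 genes, all but Cdc20, and knockout 3 the leftmost for most.

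The MCM genes encode the 6 subunits of the replicative helicase. Mcm5 (chromosome 8, 75109569 to 75128439) stood at 29.7, 12.2, 46.9 and 9.75 CPM. Mcm6 (chromosome 1, 128331590 to 128359664), whose promoter with paired E2F letters is shown above, stood at 39.3, 19.7, 79.2 and 17.9 CPM. In both genes the libraries numbered 1 were at least 1.99 times the libraries numbered 3 of the same genotype, and knockout 1 stood apart as the highest. Mcm7 followed at 30.4, 17.5, 41.1 and 13.8 CPM, Mcm4 at 34.3, 26.2, 46.1 and 22.0 CPM. The values for Mcm2 were 23.5, 17.8, 31.0 and 13.9 CPM, and for Mcm3 54.4, 43.7, 58.9 and 34.1 CPM. All 6 subunits had the same order of libraries, but not the same size of difference: the change from number 1 to number 3 was -1.81 ± 0.27 (log2, SE) for Mcm5 and -1.65 ± 0.35 for Mcm6, against -0.54 ± 0.16 for Mcm3.

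Ribonucleotide reductase, which makes deoxyribonucleotides, has a large subunit, Rrm1, and an S phase subunit, Rrm2. Rrm1 (chromosome 7, 102441695 to 102469771) was measured at 65.7, 47.7, 98.5 and 39.1 CPM. Rrm2 (chromosome 12, 24708241 to 24714146) was at 17.3, 12.5, 27.9 and 7.26 CPM. Knockout 1 had the highest and knockout 3 the lowest level of both subunits, and the span was wider for Rrm2. Tyms, thymidylate synthase, stood at 4.55, 5.17, 7.74 and 3.12 CPM, so its controls were in the opposite order to those of Rrm1 and Rrm2. Tk1, thymidine kinase of the salvage route, stood at 21.6, 12.3, 27.6 and 12.1 CPM, with nearly equal libraries in number 3.

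Pcna, the polymerase clamp (chromosome 2, 132249162 to 132253314), was the member with the highest level per length and the smallest change between numbers. It stood at 84.6, 93.7, 118 and 86.4 CPM. Knockout 1 was again highest, but the other 3 libraries lay close together and control 3 was above control 1. The starters of S phase differed more. Ccne1, cyclin E1, stood at 11.3, 4.13, 16.3 and 4.60 CPM, and Ccne2, cyclin E2, at 6.02, 3.71, 11.1 and 4.14 CPM. Both cyclins were higher in the libraries numbered 1, and in both knockout 3 was slightly above control 3. E2f1, a factor that raises S phase genes, stood at 45.3, 33.6, 50.6 and 32.8 CPM, with a change of -0.53 ± 0.13 (log2, SE) from number 1 to number 3.

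Among the G2 and mitosis genes, Mki67, which encodes the proliferation antigen Ki-67 that coats mitotic chromosomes (chromosome 7, 135689784 to 135716361), had the lowest level in control 3, unlike most of the list. Its levels were 204, 55.9, 230 and 101 CPM. Knockout 3 was above control 3 by 0.85 (log2), the largest such difference among the 36 genes. Top2a, the topoisomerase that untangles replicated DNA (chromosome 11, 98992943 to 99024189), had 59.9, 32.1, 90.7 and 23.7 CPM, the common order.

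The mitotic cyclins and their kinase shared a high knockout 1. Ccna2, cyclin A2, stood at 13.7, 6.59, 25.1 and 5.23 CPM. Cdk1, the kinase (chromosome 10, 69335146 to 69352938), stood at 16.0, 9.88, 26.8 and 10.2 CPM, with the number 3 libraries almost level. For the B cyclins, Ccnb1 gave 9.15, 5.20, 12.1 and 3.41 CPM. The other one, Ccnb2, gave 6.46, 2.95, 8.72 and 1.87 CPM, and all 3 cyclins placed knockout 3 lowest.

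The mitotic kinases include Plk1, the Polo-like kinase, and the Aurora kinases. Plk1 was at 7.62, 4.46, 9.21 and 3.13 CPM. Aurkb, the Aurora kinase of the chromosomal passenger complex, was at 8.39, 3.47, 15.5 and 2.51 CPM, so knockout 1 was 6.18 times knockout 3. Aurka, the Aurora kinase of spindle poles, was at 5.38, 5.41, 8.40 and 3.52 CPM, with level controls. The passenger complex also holds survivin, Birc5, and borealin, Cdca8. Birc5 (chromosome 11, 117849251 to 117855743) stood at 11.1, 3.63, 13.7 and 2.38 CPM. Its libraries numbered 1 were 3.06 times (control) and 5.75 times (knockout) those numbered 3. Cdca8 differed less, at 10.8, 7.49, 12.9 and 6.11 CPM.

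Bub1 and Bub1b encode proteins of the spindle assembly checkpoint, which holds anaphase until chromosomes are attached. Bub1 stood at 12.02, 4.47, 19.4 and 4.42 CPM. Bub1b (chromosome 2, 118598211 to 118641591) stood at 19.5, 7.67, 25.2 and 8.64 CPM. In both genes each library numbered 1 was well above the library numbered 3 of its genotype (2.55 times in the controls and 2.91 times in the knockouts for Bub1b), and the genotypes were close in number 3. Cenpe, a motor, and Cenpf are proteins of the kinetochore. Cenpe was at 14.1, 8.95, 27.8 and 8.26 CPM and Cenpf at 8.87, 5.41, 14.2 and 4.07 CPM.

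Spindle genes included the widest span between libraries. Nusap1, a microtubule-binding protein (chromosome 2, 119618298 to 119650160), stood at 9.57, 3.86, 13.9 and 1.86 CPM, so knockout 1 was 7.47 times knockout 3, the widest ratio of the 36 genes. Kif11, the motor that pushes spindle poles apart (chromosome 19, 37376403 to 37421859), stood at 13.9, 4.96, 21.4 and 3.99 CPM. Both had the common order. Kif23, a motor of the central spindle, was at 7.77, 5.07, 11.9 and 2.74 CPM, and Kif20a, which works with it in cytokinesis, at 13.6, 9.12, 16.3 and 5.89 CPM. Tpx2, which activates Aurora A on the spindle, was at 15.3, 10.9, 22.7 and 7.71 CPM. Knockout 3 was the lowest library of all 5 spindle genes.

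The genes that end mitosis included the single exception in number 1. Cdc20, the activator of the anaphase-promoting complex (chromosome 4, 118432901 to 118437352), stood at 5.93, 4.13, 4.53 and 2.84 CPM. It was the only member below its control in knockout 1, and the only one lower in the knockout under both numbers. Ube2c, the ubiquitin-conjugating enzyme of that complex, stood at 4.07, 2.73, 6.57 and 1.64 CPM and kept the common order.

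Across the list, the libraries separated by number. Both libraries numbered 3 were below both numbered 1 in 33 of 36 genes (12 of 14 in S phase, 21 of 22 in G2 and mitosis), against 25.2% of all genes tested. The exceptions were Pcna, Tyms and Aurka, and 0 of the 36 had the opposite order, which 26.2% of all genes had. The fitted change from number 1 to number 3 was below 0 for all 36 genes, from -2.04 to -0.17 on the log2 scale, with a median of -1.24 against 0.00 over all genes tested. It was below -1 for 25 genes (8.8% of all genes), namely 7 of 14 in S phase and 18 of 22 in G2 and mitosis. The median was -0.97 in S phase and -1.32 in G2 and mitosis; the difference between phases was not tested.

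None of the 36 passed the quasi-likelihood test of edgeR for library number at an adjusted p of 0.05, which called 82 genes lower (0.475%) and 95 higher (0.55%) of 17260, or 1.03% in all. The nearest was Bub1b, at -1.45 ± 0.20 (log2, SE), unadjusted p = 0.000833 and adjusted p = 0.0586 by edgeR. Birc5 (-2.04 ± 0.30) and Kif11 (-1.98 ± 0.29) had an edgeR adjusted p of 0.0619, Mcm5 of 0.0651 and Ccne1 (-1.66 ± 0.26) of 0.0668. Before this test it was known that the members lay lower in number 3, so the shares here are a description only. At an unadjusted p under 0.05, 32 of the 36 were lower, against 9.32% of all genes. DESeq2, fitted as an alternative, called 29 of the 36 lower (10 in S phase, 19 in G2 and mitosis) beside 4.61% of 18262 genes. Its adjusted p was 9.58e-07 for Bub1b, 8.08e-08 for Kif11 and 9.55e-08 for Mcm5. The tests differ in how they model the spread between 2 libraries, and the call differed with them. Under the fit to number, Pcna changed by -0.17 ± 0.19 (log2, SE; edgeR adjusted p = 0.704), and without knockout 1 its estimate was 0.10.

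**Figure D3:**
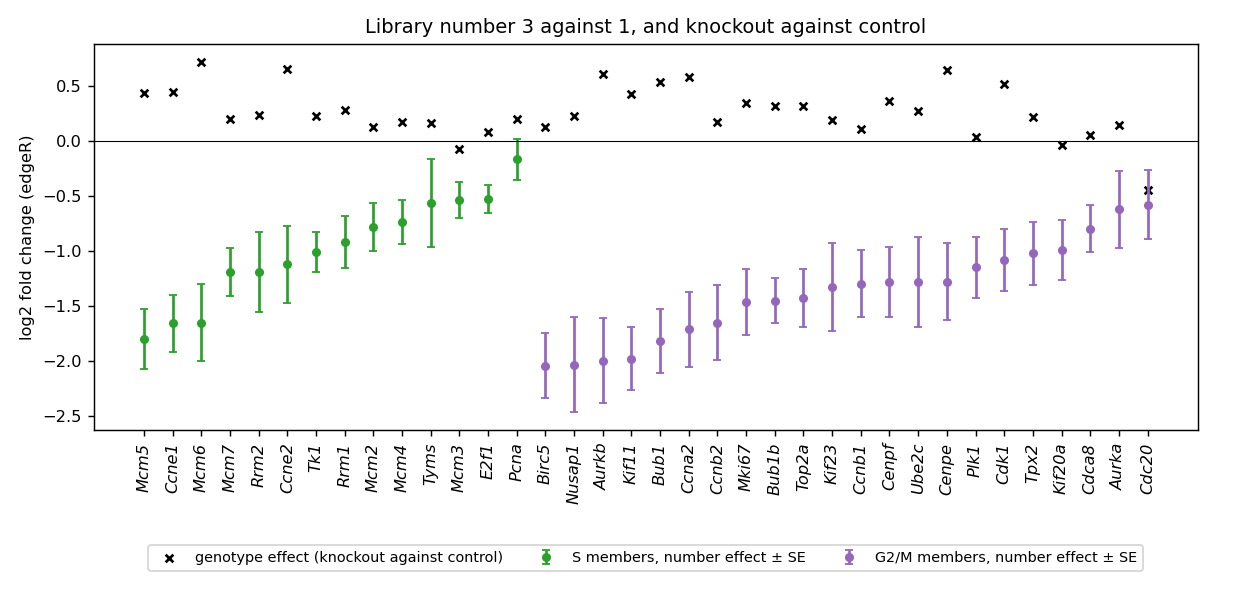
Points are the fitted log2 fold change of number 3 against number 1 for each cell cycle gene, and bars are the standard error. All 36 of these points lie below 0, from Pcna nearest 0 to Birc5 and Nusap1 at -2.04. Crosses give the fitted genotype change of each gene (knockout against control), above 0 for 33 genes.

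Within a number, the knockout was compared with its control, 1 library against 1, as a description with no test. In number 1 the knockout was above the control in 35 of 36 genes (50.7% of all genes tested), and in number 3 it was below the control in 31 of 36 (52.1% of all genes). The median difference, knockout minus control, was 0.55 (log2 CPM) in number 1 and -0.35 in number 3, where all tested genes had medians of 0.00 and -0.02. Both directions held in 30 genes (12 of 14 in S phase, 18 of 22 in G2 and mitosis), against 24.9% of all genes, and the reverse pair of directions in 0 of 36, against 22.1%. In S phase the medians were 0.50 and -0.27, and in G2 and mitosis 0.58 and -0.48.

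The sizes in number 1 were largest for Mcm6 at 1.01 (log2 CPM, counting interval 0.86 to 1.16), Cenpe at 0.97 (0.73 to 1.23) and Aurkb at 0.89 (0.56 to 1.22). These 95% intervals are exact binomial, take 4 counts as 1 read pair, and cover counting error only. In number 3 the lowest differences were for Nusap1 at -1.04 (-1.68 to -0.44), Kif23 at -0.88 (-1.41 to -0.37) and Rrm2 at -0.78 (-1.11 to -0.47). Counting error alone did not span these values, but the spread between cultures of one genotype and number was not measured. The interval lay above 0 in number 1 for 30 genes (16.1% of all genes) and below 0 in number 3 for 20 genes (20.9%). It did both for 16 genes, 8 in each phase, against 3.7% of all genes.

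Exceptions to the paired directions were few. Mki67 was higher in the knockout in both numbers, by 0.17 (0.10 to 0.24) and 0.85 (0.74 to 0.97). Ccne1 differed by 0.53 and 0.15, Ccne2 by 0.88 and 0.16, Cdk1 by 0.74 and 0.05, and Bub1b by 0.36 and 0.17, each with a counting interval in number 3 that includes 0. Cdc20 was lower in the knockout in both, by -0.39 (-0.86 to 0.10) and -0.54 (-1.09 to -0.01). The DNA synthesis genes Rrm1 (0.58 and -0.29), Rrm2 (0.68 and -0.78) and Tyms (0.76 and -0.72) went opposite ways beyond counting error.

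**Figure D4:**
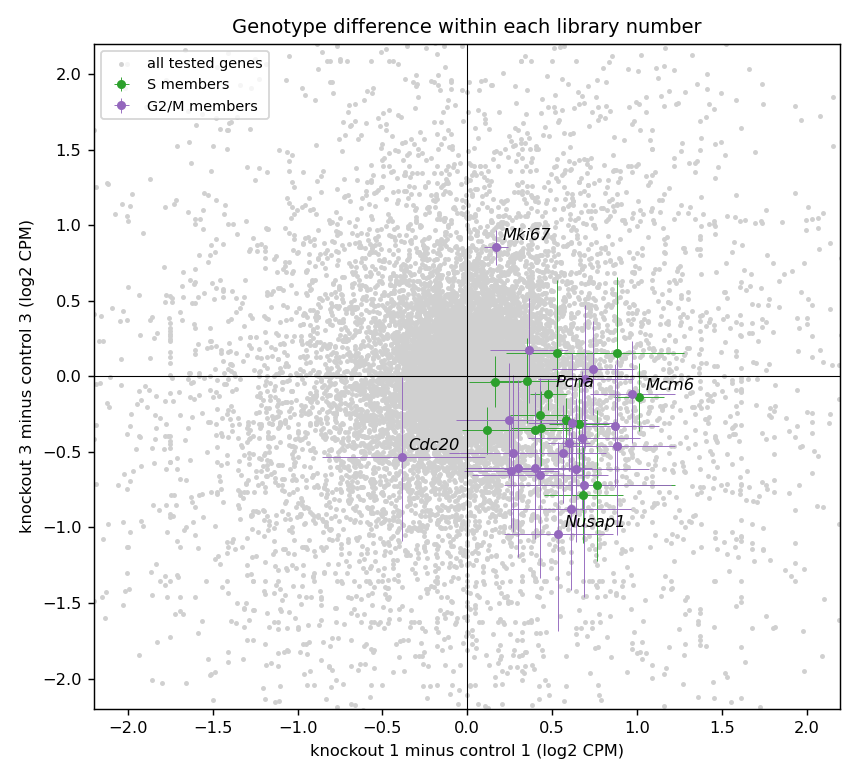
Each point is a gene, placed by the knockout minus control difference (log2 CPM) in number 1 (horizontal) and number 3 (vertical), with S phase and G2 and mitosis genes coloured and other tested genes in grey; the axes leave out grey points far from 0. Most cell cycle genes (30 of 36) lie in the lower right part, with Mki67 high on the right and Cdc20 alone on the left.

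Tested over both numbers together, genotype gave no call among the cell cycle genes. In edgeR 0 of 36 passed at an adjusted p of 0.05, as did 0 of all 17260 genes (0%). At an unadjusted p under 0.05 there were 0 of 36, against 2.27% of all genes, and DESeq2 called 0 of 36 beside 74 genes in all (0.416%). Both knockouts were above both controls in 0 of the 36 and below in 0 of the 36, orders that 13.1% and 13.4% of all genes had. Over all 17260 genes tested, the median fitted change was -0.001 (log2), and 8603 genes were above 0. Among the 36 the median fitted change was 0.23 (log2), with 33 genes above 0 and Mcm3, Kif20a and Cdc20 below. Its errors were wide: Mcm6 had 0.72 ± 0.77 (SE), Mki67 0.35 ± 0.73, Top2a 0.31 ± 0.70 and Cdc20 -0.45 ± 0.41. The sign of the median turned on which library was left out. The median was -0.76 without knockout 1 and -0.07 without control 3, and 0.89 without knockout 3 and 0.67 without control 1. Leaving out 1 library makes the genotypes unequal in library number, so the difference between numbers enters these values. With all 4 libraries and number as a block, the median was 0.07. A different genotype effect in each number cannot be tested, since that needs more than 1 library of each kind.

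The difference between numbers was wider in the knockouts than in the controls, a contrast that these 4 libraries cannot test. For each gene it is the same contrast as the genotype differences compared between numbers above, and not a further result. From number 1 to number 3 the median change was -1.56 (log2 CPM) in the knockouts and -0.70 in the controls, while all genes tested had medians of 0.00 in both. The summed level in number 1 was 2.51 times that in number 3 in the knockouts and 1.71 times in the controls. For the G2 and mitosis genes the sums were 477, 204, 636 and 215 CPM, and for the S phase genes 468, 349.9, 661 and 301 CPM. The G2 and mitosis sum of knockout 3 was above that of control 3 although 19 of its 22 genes were below, since Mki67 alone was 101 against 55.9 CPM.

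Other genes of the same processes were also mostly lower in number 3. Of 48 further mitosis genes, 46 had a fitted change below 0 from number 1 to number 3, with a median of -1.18 (log2). Over all 17260 genes tested, 8662 had a change below 0. In 44 of the 48, both libraries numbered 3 were below both numbered 1, against 25.2% of all genes. Their median knockout difference was 0.54 (log2 CPM) in number 1 and -0.39 in number 3. Of 40 further replication genes, 39 had a change below 0, with a median of -0.54, and 27 had both libraries numbered 3 lowest. Their knockout differences had medians of 0.40 and -0.13. None of these genes passed edgeR's adjusted threshold for number, and none for genotype.

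The most abundant of these genes per length are named here by the fixed rule. In mitosis they were Incenp, the inner centromere protein of the passenger complex, at 75.6, 60.9, 86.7 and 63.6 CPM, and Smc4, a condensin subunit, at 90.4, 53.2, 107 and 71.6 CPM. In replication they were Dnmt1, the maintenance DNA methyltransferase, at 128, 126, 153 and 122 CPM, and Gins4, of the helicase cofactor GINS, at 20.6, 19.3, 20.97 and 21.9 CPM. Their changes with number were -0.38 ± 0.13 (Incenp), -0.66 ± 0.19 (Smc4), -0.18 ± 0.13 (Dnmt1) and -0.01 ± 0.15 (Gins4; log2, SE).

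Regulators of the cycle had no shared direction of change with number. The 22 RB, E2F and DREAM genes, which repress or drive the phase genes, had a median change with number of -0.08 (log2), 14 below 0 and 8 above. Their median knockout minus control difference was 0.12 (log2 CPM) in number 1 and -0.10 in number 3. The difference was above 0 in number 1 and below 0 in number 3 for 13 of the 22, against 24.9% of all genes. E2f4, the main E2F of resting cells, was level at 51.4, 54.9, 49.9 and 50.5 CPM, and its partner Tfdp1 at 65.0, 60.1, 68.0 and 58.6 CPM. Foxm1 and Mybl2, the factors that drive G2 and mitosis genes, were picked out after their values were seen. Foxm1 stood at 6.04, 2.15, 7.15 and 1.01 CPM and Mybl2 at 4.46, 2.42, 8.30 and 1.77 CPM, both in the common order. Their changes with number were -2.07 ± 0.43 (edgeR adjusted p = 0.111) and -1.61 ± 0.40 (adjusted p = 0.141).

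The 8 G1 cyclins and kinases, which act before S phase, had a median change with number of -0.20 (log2), 4 below 0 and 4 above. Their median knockout minus control difference was 0.46 (log2 CPM) in number 1 and -0.42 in number 3, near the medians of the 36 genes. The difference was above 0 in number 1 and below 0 in number 3 for 5 of the 8, against 24.9% of all genes. Cdk4, the kinase of the D cyclins, stood at 63.3, 52.3, 63.7 and 42.6 CPM, and Ccnd3, cyclin D3, at 34.7, 34.0, 88.7 and 19.8 CPM. Of the 7 inhibitors of cyclin-dependent kinases 6 were tested: 4 were below 0 and 2 above, with a median of -1.02 and 0 calls. The 2 above 0, Cdkn1c and Cdkn2b, were named after their values were seen and stood at 0.313, 4.31, 0 and 4.16 CPM and at 0.129, 1.08, 0.400 and 0.758 CPM. Cdkn1a, which encodes p21, was at 175, 97.4, 188 and 74.3 CPM (edgeR adjusted p = 0.0668), and Cdkn1b, which encodes p27, at 85.3, 37.5, 67.9 and 37.2 CPM (adjusted p = 0.0619). Of 16 p53 pathway genes, 11 were below 0 and 1 passed, as higher, beside 0.55% of all genes tested. Plk2, a Polo-like kinase induced by p53 and other signals, rose from 23.3 and 22.0 CPM in number 1 to 149 and 154 CPM in number 3, by 2.74 ± 0.12 (log2, SE; edgeR adjusted p = 0.00995).

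**Figure D5:**
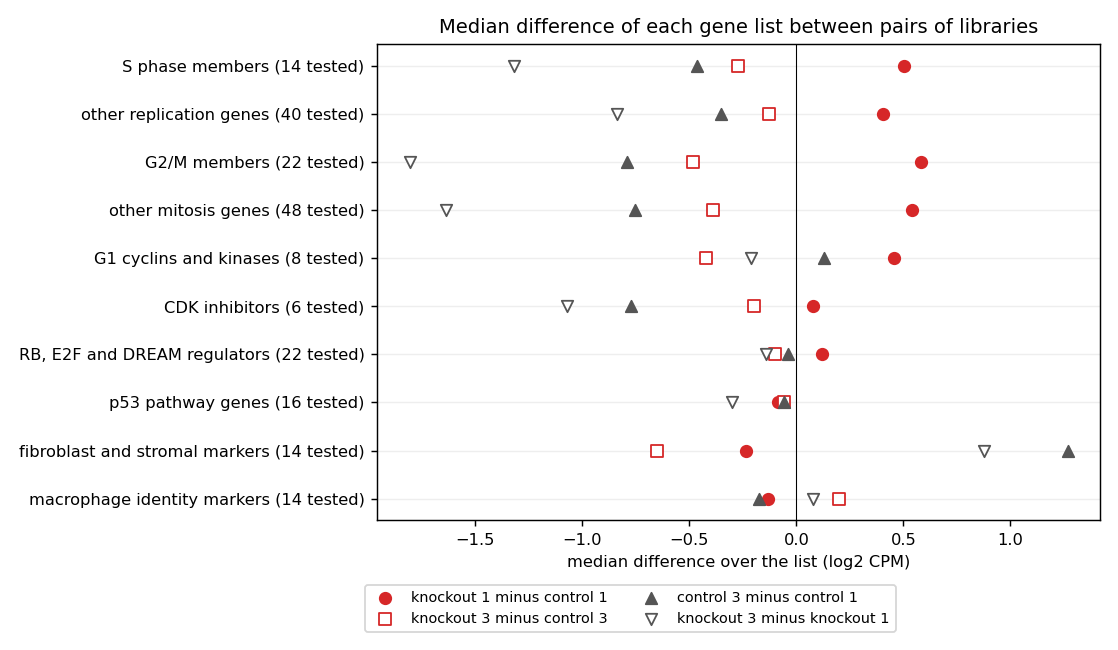
Rows are gene lists and points the median difference over the tested genes of each list (log2 CPM), with 4 markers for knockout minus control in number 1 and in number 3 and for number 3 minus number 1 in controls and in knockouts. The replication and mitosis rows spread to both sides of 0, with the number difference lowest in the knockouts. Knockout minus control also lay on both sides of 0 for the G1 cyclins and kinases (0.46 in number 1, -0.42 in number 3). For the RB, E2F and DREAM genes it was 0.12 and -0.10, and for the inhibitors of cyclin-dependent kinases 0.08 and -0.20. All tested genes, whose medians were near 0, are not drawn.

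Markers of other cells were read beside these results. The 14 macrophage identity markers were all tested and had a median change with number of -0.02 (log2), with summed levels of 42149, 57045, 44055 and 45468 CPM. Lyz2, the lysozyme gene whose promoter drives the Cre, was at a mean of 19533 FPKM, and Adgre1, the F4/80 antigen, at 1725 FPKM. Of 18 epithelial and colon markers, 3 were tested and 9 were at a count of 0 in every library, Epcam, Krt8 and Krt18 among them. Their summed level was 6.43 to 7.88 CPM, and the most abundant were Tjp3 (6.81, 5.22, 4.11 and 4.78 CPM) and Krt19 (0.387, 0.888, 1.20 and 0.859 CPM). No gene peculiar to MC38 was among the lists, so RNA of MC38 cells, which divide, was not measured apart from that of macrophages.

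Fibroblast and stromal markers were mostly higher in number 3, the direction opposite to the cell cycle genes. Their summed level was 523, 1179, 414 and 762 CPM. In 10 of 14, both libraries numbered 3 were above both numbered 1, against 26.2% of all genes tested. For number, edgeR called 3 of the 14 higher, against 0.55% of all genes. Postn, periostin, rose by 2.30 ± 0.15 (log2, SE; edgeR adjusted p = 0.0166), Tagln, transgelin, by 2.48 ± 0.26 (adjusted p = 0.0382) and Acta2, smooth muscle actin, by 2.32 ± 0.27 (adjusted p = 0.0434). Within numbers their medians were -0.24 and -0.65, lower in the knockout in both, unlike the cell cycle genes. Myeloid progenitor and neutrophil markers (9 of 14 tested, Ctsg and Ly6g at a count of 0 in every library) summed to 17.8, 24.0, 24.7 and 32.3 CPM, most of it S100a8 at 14.1, 15.9, 18.9 and 24.2 CPM, with S100a9 at 0, 1.02, 0 and 1.15 CPM. Lymphocyte markers (4 of 13 tested, with Cd3e and Cd8a at a count of 0 in every library) summed to 22.7, 27.2, 35.1 and 26.3 CPM, led by Cd4 at 17.1, 23.8, 24.5 and 23.1 CPM and Cd79b at 5.15, 2.78, 9.89 and 2.46 CPM. The part of these markers, and of sex, in the cell cycle result was not tested.

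The coordinates of 35 of the 36 genes matched GENCODE M21 on GRCm38. By these coordinates 16 of the 36 overlapped another gene, 14 of them a gene on the opposite strand, and the sources used here do not state if counting used the strand. Reads of Ccna2 and Exosc9, of Kif20a and Cdc23, of Tk1 and Afmid, of Ccne2 and Ints8, of Nusap1 and Oip5, of Mcm7 and Cops6, of Cdc20 and Elovl1, and of Ube2c and Tnnc2 may thus be divided differently from their true source. The other 20 overlapped no annotated gene, among them Mcm5, Mcm6, Birc5, Bub1b, Rrm2 and Pcna.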

How the data were processed

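The authors deposited 1 table of estimated counts and FPKM values for each gene in each library, per the file headers. The submitters' processing notes name cutadapt 1.9, HISAT2 2.0.4, StringTie 1.3.4d, edgeR and DESeq2. The counts were whole and were used as deposited. Low counts were often multiples of 4, so counting intervals took 4 counts as 1 read pair, which gives 13.8 M to 19.8 M pairs per library. Also deposited were 4 columns of 2 further libraries that matched no sample, and they were not used. Counts were tested with edgeR 4.0.16 (R 4.3.3; TMM, filterByExpr, quasi-likelihood, two-sided, Benjamini-Hochberg over 17260 genes), for genotype and, separately, for library number, 2 libraries against 2. With 2 a side an exact permutation test cannot go below p = 0.333. Each SE was back-calculated, as the absolute log2 fold change over the square root of edgeR's F statistic. Differences between single libraries are log2 CPM with a prior count of 2. DESeq2 1.42.0, limma 3.58.1 on log2(FPKM + 1), other scalings and filters, and leaving out each library were alternatives. The tests were tried on simulated data.

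The members and gene lists were chosen with earlier results of these data known. The text names all 36 members, up to 4 called genes of each other list or else the 2 with the highest mean FPKM, and Mettl3, Ddx3y and Xist as checks. Outside this rule it names Foxm1, Mybl2, Cdkn1c and Cdkn2b, markers at a count of 0, and genes that overlap a member.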

Additional observations from a re-analysis of the deposited data

Results flagged for a closer look

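The difference between knockout and control ran in opposite directions in the 2 library numbers for many cell cycle genes, with 1 library of each kind, and the difference between numbers was not tested. Given here as the knockout minus control difference in number 3 less that in number 1 (log2 CPM), it was -0.90 for the median of all 36 genes (0.55 and -0.35), -0.78 for the S phase median and -1.07 for the G2 and mitosis median.

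In 16 genes the differences in both numbers lay beyond counting error and on opposite sides of 0, and the values below are for those genes only. Among them the value was lowest in Nusap1, at -1.58, followed by Kif23 and Tyms, each at -1.49, Rrm2 at -1.47 and Ube2c at -1.41. It was followed by Aurka at -1.25, Ccnb2 at -1.08, Tpx2 at -1.07, Top2a at -1.04 and Ccnb1 at -1.001. Among those of the 16 that act in DNA synthesis, the rest were -0.98 for Mcm5, -0.87 for Rrm1, -0.78 for Mcm7, -0.75 for Mcm2, -0.68 for Mcm4 and -0.60 for Pcna.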

How the results depend on the processing

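The counts of 33 genes lowest in number 3 and 30 with opposite directions were the same under 6 other scalings. The scalings were chosen after the data were seen. Both counts rest only on the order of the libraries within a gene, so part of this sameness was fixed in advance. A prior count of 0.5 cannot change that order, and log2(FPKM + 1) and log2(FPKM + 0.1) must share an order. For library number, edgeR called 177 genes. The count was 375 with no filter on low counts, 1572 with DESeq2, 104 with limma on log2(FPKM + 1), and 1 to 87 with 1 library left out (4 without control 1, 57 without control 3, 1 without knockout 1, 87 without knockout 3). Of the 36 cell cycle genes it called 0, with 6 under no filter (Mcm5, Ccne1, Bub1, Bub1b, Birc5 and Kif11), 29 with DESeq2, 1 with counts divided by 4 (Bub1b), and 0 to 1 with a library left out (Mki67, without knockout 3). The median change with number was -0.75 with limma on log2(FPKM + 1), which compresses low genes, and -1.49 to -0.89 with 1 library left out. For Pcna alone the direction turned, its change being -0.38 to 0.10 with 1 library left out (0.10 without knockout 1). For genotype, 74 genes were called by DESeq2 against 0 by edgeR, none a member. The median over members was -0.76 to 0.89 with a library left out, fits in which the genotypes are unequal in library number. Unless a value or the construction is given, the cause was not tested.

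The labels do not say whether equal numbers pair the libraries. Over genes, the number difference correlated between genotypes at 0.419, with 2 pairs only. With a replicate block, 0 genes and 0 members were called for genotype, and the median over members was 0.07.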
